A study of Mus musculus with 27 samples.

Results

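Cells sorted for the dopamine transporter (DAT+) from the substantia nigra pars compacta (SNc) of mice were compared between postnatal day 60 (P60, adult) and postnatal day 7 (P7, infant). The libraries were chosen by their labels, as the 3 SNc libraries of P60 (replicates 1, 3 and 4) and the 3 SNc libraries of P7 (replicates 1, 2 and 3), which make 6 of the 27 libraries of the series. In the series, DAT+ cells of 3 regions, the nucleus accumbens (NAc), the SNc and the ventral tegmental area (VTA), were sampled at 3 ages (P7, P30 and P60), giving 9 groups of 3 libraries from 5 mice per age. All groups were C57/BL6 mice. Each brain region was dissected and dissociated, DAT+ cells were isolated by flow cytometry, and RNA was profiled by SMART-seq2, a full-length protocol for small numbers of cells. The sources used here do not give how the transporter was marked for sorting, the number of cells per library or the sex of the mice. With 9 libraries from 5 mice at each age, some libraries must share mice, and which ones do is not given. The tests treat libraries as independent, so each p-value reflects library-to-library spread that may be technical rather than biological. The library titles carry a different date and a different code for each age, so age cannot be told apart from what these stand for.

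Midbrain dopaminergic neurons take up dopamine through the transporter Slc6a3, make it with the enzymes Th and Ddc, load it into vesicles with Slc18a2, and depend on transcription factors such as Nr4a2 and Pitx3. Around them, the first postnatal weeks are known as the time when microglia settle into their adult state, oligodendrocytes build myelin, astrocytes mature and precursors leave the cell cycle. Microglia are the resident macrophages of the brain tissue, whereas border macrophages line its vessels and coverings.

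Values are rescaled FPKM, the deposited fragments per kilobase of gene and per sequencing depth recomputed so that the depth is each library's own reads in genes. The P60 libraries held 9838685 to 12439041 reads in genes, and the P7 libraries 13276290 to 13802952. Genes with at least 1 read numbered 17436, 12736 and 17108 in P60 replicates 1, 3 and 4, against 17800, 19082 and 18025 in P7 replicates 1, 2 and 3. P60 replicate 3 stood apart: its rank correlation over genes was 0.717 with P60 replicate 1 and 0.694 with P60 replicate 4, against 0.802 between those 2 libraries and 0.824 to 0.835 among the P7 libraries. Results that rest on it are given with and without it. In every sentence below, SNc library values are given in the order of the replicates just named. Values of NAc and VTA libraries are given from lowest to highest.

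The label of dopaminergic cells was checked against genes that define them, which were low, absent or uneven among the libraries at both ages. Slc6a3, the transporter used for the sort (chromosome 13, bases 73536747 to 73578672 of GRCm38), had 1.35, 0.326 and 2.48 rescaled FPKM in P60 libraries, against 0.0629, 1.39 and 53.4 in P7 libraries. The groups overlapped, and P7 replicate 3 alone was above 3. Th, the rate-limiting enzyme of dopamine synthesis, had 4.34, 0 and 19.9 in P60 libraries, against 3.34, 14.6 and 0 in P7 libraries, so that 1 library of each age had no Th read. Pitx3 and Foxa2, transcription factors of these neurons, had no read in any of the 6 libraries. The 13 genes of dopamine synthesis and handling summed to 364 to 441 at P60, against 145 to 183 at P7. Of that sum, Qdpr, an enzyme that many cell types express, had 179, 191 and 185 at P60, against 59.3, 42.2 and 42.6 at P7, and was not called (adjusted p 0.098). The summed level of 16 genes of homeostatic microglia was 19635 to 26356 in P60 libraries, against 3085 to 3527 in P7 libraries, and that of 18 genes shared by microglia and macrophages was 23234 to 31306 at P60, against 14540.3 to 16598 at P7. Most of the homeostatic microglia sum at P60 was the gene Cst3, whose values are given below. The 16 pan-neuronal genes summed to 163 to 202 at P60, against 575 to 723 at P7. These are therefore described as cells sorted from the SNc and not as dopaminergic neurons. In bulk RNA, more cells of a type and more RNA per cell cannot be told apart, which holds for every gene group below.

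**Figure D1:**
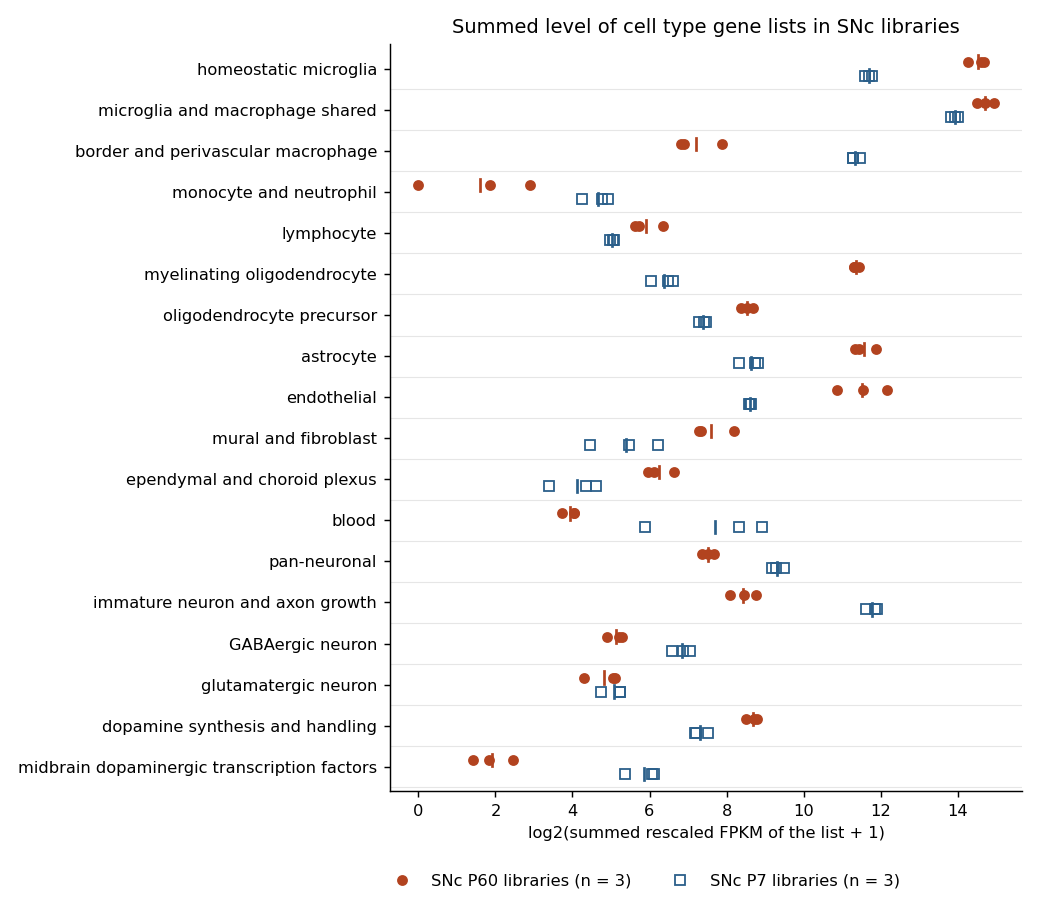
Summed level of 18 cell type gene lists, as log2(summed rescaled FPKM + 1), in each SNc P60 library (filled circles, upper position) and each SNc P7 library (open squares, lower position). Bars mark the mean of the 3 log2 values. The microglial lists lie far above the dopaminergic ones at both ages, and the P60 and P7 libraries overlap for the glutamatergic list alone.

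Across the whole table, 18888 genes had a rescaled FPKM of at least 1 in at least 3 of the 27 libraries and were tested with limma on log2(rescaled FPKM + 1), with Benjamini-Hochberg adjusted p below 0.05 taken as a call. Fold changes below are P60 over P7 on this log2 scale, with the standard error (SE), and understate the change of genes with low values. Of these genes, 720 (3.81%) were called, 201 of them higher at P60 (1.06%) and 519 lower (2.75%), and the median change over all 18888 genes was -0.18. With quantile normalization that median moved to 0.00 and 437 genes were called higher and 622 lower, so that 41.3% of the calls were higher, against 27.9% in the scaling used here. Without P60 replicate 3, 413 genes (2.19%) were called, 148 higher (0.784%) and 265 lower (1.4%), 359 of which were among the 720. VTA P30 replicate 3, which had only 6786 genes with a read, shares the estimate of spread, and without it 394 genes were called higher and 788 lower. Groups of libraries did not overlap for 1900 genes with P60 higher (10.1%) and 3775 genes with P60 lower (20.0%). Each list count below is to be read beside these shares and those of the calls. In the larger lists 1 call lies close to the share of all genes. Leaving out 1 of the 6 libraries gave 412 to 512 calls, the lowest without P7 replicate 2. Of 144 called genes that belong to the lists or are named below, 85 remained called whichever of the 6 libraries was left out, and 63 under every alternative run. Where a named gene did not, the libraries whose removal ended the call and the highest adjusted p among those fits are given.

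**Figure D2:**
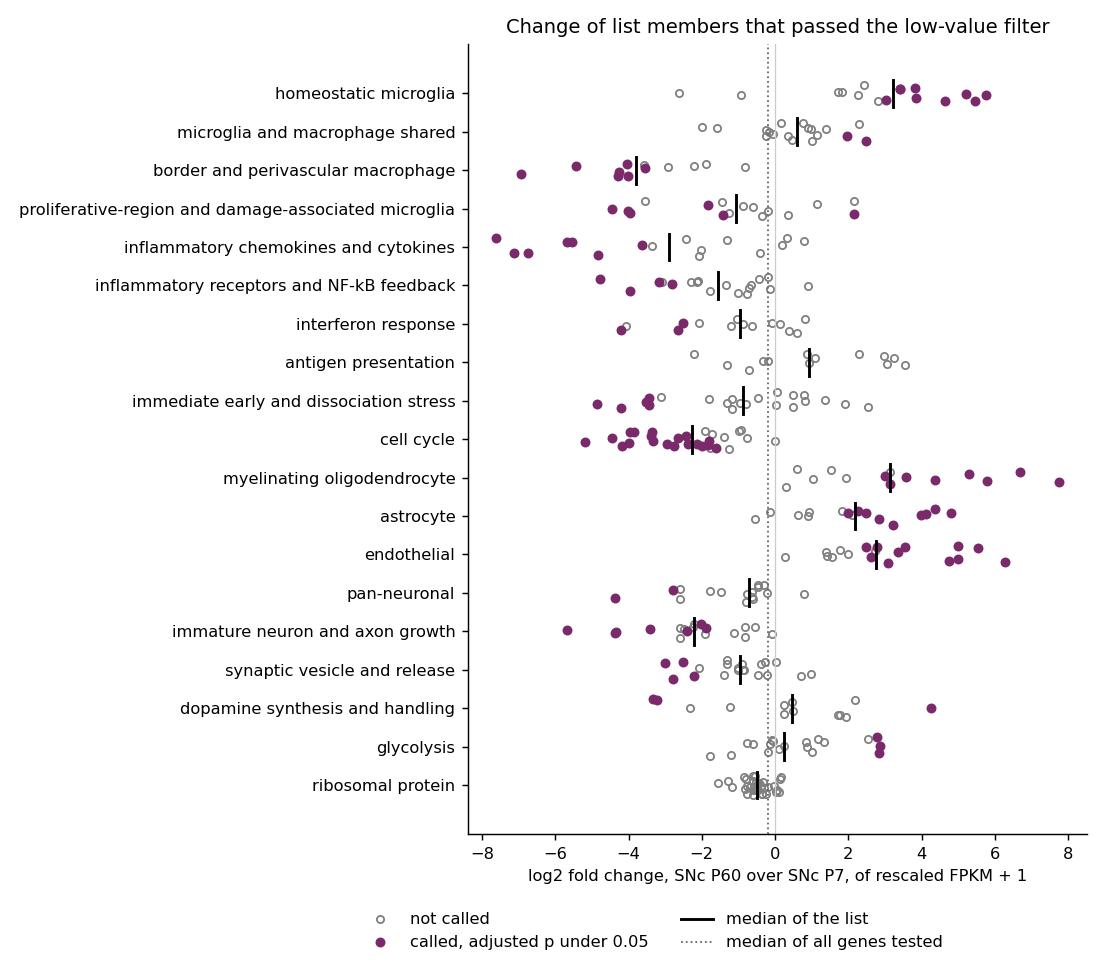
Log2 fold change (SNc P60 over SNc P7, of rescaled FPKM + 1) of each list member that passed the filter on low values, by gene list. Filled points are genes called at an adjusted p below 0.05, open points were not called, the black bar is the median of the list and the dotted line the median of all genes tested, at -0.18.

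Genes of homeostatic microglia were higher at P60. Of 16 listed genes, all of which passed the filter, 9 were called higher and 0 lower, with a median change of 3.21, against 1.06% and 2.75% of all genes and a median of -0.18. Between 5 and 8 of them were called higher when 1 library was left out, 8 without P60 replicate 3. Tmem119, a membrane protein used as a marker of resident microglia (chromosome 5, bases 113793729 to 113800516), had 2295, 1958 and 1437 rescaled FPKM in P60 libraries, against 60.02, 33.1 and 34.7 in P7 libraries. Every P60 library was more than an order of magnitude above every P7 library, a log2 fold change of 5.47 ± 0.62 (adjusted p 7.1e-06). Selplg, a ligand of selectins, had 731, 536 and 573 at P60, against 8.17, 12.1 and 10.8 at P7, a change of 5.76 ± 0.53 (adjusted p 5.7e-07). The libraries of each age lay close together for this gene. Gpr34, a receptor for lysophosphatidylserine, had 552, 311 and 326 at P60, against 5.13, 11.4 and 13.2 at P7 (5.23 ± 1.02, adjusted p 0.0028), with replicate 1 highest at P60 and lowest at P7.

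The more abundant genes of this list were separated by age as well. Cst3, an inhibitor of cysteine proteases, had 12758, 11753 and 16744 rescaled FPKM at P60, against 1286, 1447 and 1122 at P7 (3.41 ± 0.47, adjusted p 7.4e-05). Both groups were tight, and no library of either age came near the other age. P2ry12, the ADP receptor that guides microglial processes, had 1896, 1317 and 791 at P60, against 101, 74.9 and 85.9 at P7 (3.84 ± 0.90, adjusted p 0.013); its call was lost without P7 replicate 2, P60 replicate 1 or P60 replicate 3 (adjusted p up to 0.062). P2ry13, a related nucleotide receptor, was called higher (3.82 ± 0.83, adjusted p 0.0075), but not without P7 replicate 1 or P60 replicate 1 (up to 0.066). Olfml3, a secreted matrix protein, and Slc2a5, a fructose transporter, were called higher with changes of 3.40 ± 0.92 and 4.64 ± 1.15 (adjusted p 0.036 and 0.021). Of the fits that left out a library, Olfml3 was called only in that without P60 replicate 3 and Slc2a5 only in that without P60 replicate 4 (adjusted p up to 0.13 and 0.096).

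The PU.1 motif GAGGAAGT was in none of 13 promoters of 11 genes of this list (250 bases before the RefSeq start, either strand), against 2.44% of all 32851 promoters. The other 7 members were not called. Cx3cr1, the fractalkine receptor, had 422, 134 and 237 at P60, against 59.4, 57.6 and 85.4 at P7, higher in every P60 library but with an adjusted p of 0.11. Trem2, a lipid-sensing receptor, had 215, 142 and 264 at P60, against 61.02, 62.8 and 55.97 at P7 (adjusted p 0.13). Sall1, Siglech and Sparc also had higher values in every P60 library (changes of 2.80, 2.26 and 2.42, adjusted p 0.062, 0.39 and 0.063). Values of the remaining pair were lower in every P60 library: Csf1r, the receptor that microglia need for survival, had 349, 125 and 508 at P60, against 560.2, 532 and 517 at P7 (adjusted p 0.45), and Fcrls had 117, 34.2 and 235, against 584, 652 and 601 (adjusted p 0.18).

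Genes that microglia share with other macrophages gave few calls. Of 18, 2 were called higher and 0 lower, with a median of 0.61; with the compared libraries alone 5 were higher and 2 lower, and on the deposited scale, before rescaling, 0 were called in either direction. Ctss, a lysosomal protease, had 6378, 5457 and 7557 rescaled FPKM in P60 libraries, against 1095, 1266 and 1101 in P7 libraries (2.48 ± 0.45, adjusted p 0.0015). Aif1, an actin-binding protein known as Iba1, was called higher (1.97 ± 0.52, adjusted p 0.030), though in none of the 6 fits that left out a library (up to 0.13). The complement genes C1qa, C1qb and C1qc were among the most abundant of the list and were not called (changes of 0.98, 0.89 and 0.35). For Tyrobp, an adaptor of immune receptors, the groups overlapped at 1378, 822 and 1538 at P60, against 1035, 1187 and 995 at P7. Spi1, the transcription factor PU.1, had 95.9, 111 and 149 at P60, against 498, 474 and 436 at P7, lower in every P60 library but not called (adjusted p 0.32).

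Markers of border and perivascular macrophages were lower at P60. Of 12 listed genes, 7 were called lower and 0 higher (4 to 6 with 1 library left out, 4 without P60 replicate 3, and 2 with a pseudocount of 0.1 in place of 1), against 2.75% and 1.06% of all genes. The median change was -3.79, against -0.18 over all genes. For all 12 every P60 library was below every P7 library, as for 20.0% of all genes. The list summed to 112 to 233 at P60, against 2476 to 2800.1 at P7. Lyve1, a hyaluronan receptor of perivascular macrophages, had 0, 0 and 7.32 rescaled FPKM at P60, against 211, 261 and 281 at P7, a change of -6.95 ± 0.93 (adjusted p 5.7e-05). Reads of Lyve1 at P60 came from replicate 4 alone. Folr2, a folate receptor, had 2.10, 0 and 2.83 at P60, against 28.1, 43.9 and 63.6 at P7 (-4.26 ± 0.69, adjusted p 0.00044). Pf4, a chemokine stored in platelets and expressed by these macrophages, had 43.1, 15.7 and 71.8 at P60, against 1653, 1902 and 1372 at P7 (-5.43 ± 1.23, adjusted p 0.011). Without P60 replicate 3 neither Pf4 (adjusted p 0.071) nor Mrc1, the mannose receptor, passed (-4.28 ± 0.93 with all libraries, adjusted p 0.0076, and 0.065 without it). Cd163, the haptoglobin-haemoglobin scavenger receptor (-3.54 ± 0.70, adjusted p 0.0034), and F13a1, a transglutaminase subunit (-4.01 ± 0.83, adjusted p 0.0049), were called in all 6 fits that left out a library, and Ms4a7 (-4.04 ± 1.01, adjusted p 0.021) in none of them (up to 0.074).

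Other immune genes were among the 15 with the largest decrease. Fcna, a lectin that activates complement, had 2.66, 4.27 and 0.191 rescaled FPKM in P60 libraries, against 327, 351 and 354 in P7 libraries (-6.92 ± 1.37, adjusted p 0.0034). Ccl24, an eosinophil chemokine, had 1.26, 0.435 and 3.45 at P60, against 400.3, 381 and 297 at P7 (-7.20 ± 0.99, adjusted p 7.4e-05). Cd36, a scavenger receptor for lipids, had 1.10, 0.269 and 2.54 at P60, against 84.7, 78.5 and 66.8 at P7 (-5.19 ± 0.69, adjusted p 5.1e-05). All P7 libraries stood at least an order of magnitude above all P60 libraries for these 3 genes. Gas6, a bridge between dying cells and phagocytes, was the other called member of the 18 complement and phagocytosis genes, of which 2 were called lower and 0 higher (median 0.55): it had 46.1, 26.7 and 31.2 at P60, against 281, 288 and 310.3 at P7 (-3.08 ± 0.48, adjusted p 0.00034).

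Inflammatory chemokines and cytokines were lower at P60. Of 16 genes, 7 were called lower and 0 higher (5 in each fit with 1 library left out, and 11 with SNc libraries alone), with a median of -2.90, and they summed to 1205 to 1936 at P60, against 23793 to 25513 at P7. The promoters of Cxcl1 and Cxcl2, nearby genes on chromosome 5 whose products attract neutrophils, are shown because both were called lower, in all 6 fits that left out a library. The sequences are the 150 bases before the RefSeq start (GRCm38.p6), chr5:90891095-90891244 and chr5:90903749-90903898 on the plus strand, with matches on either strand to an NF-kB motif, 3 G, 2 bases of any kind, 3 T and 2 C, in capitals:
Cxcl1: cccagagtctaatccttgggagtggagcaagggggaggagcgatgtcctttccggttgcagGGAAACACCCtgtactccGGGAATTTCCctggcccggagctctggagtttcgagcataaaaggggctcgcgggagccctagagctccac
Cxcl2: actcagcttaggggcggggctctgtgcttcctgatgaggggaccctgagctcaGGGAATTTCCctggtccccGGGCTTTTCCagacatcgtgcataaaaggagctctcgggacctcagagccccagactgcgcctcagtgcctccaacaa
Each holds 2 matches, which do not overlap. Over the 250 bases before the start, 3 of the 10 promoters of this list that are in the RefSeq table held the motif (30%; Cxcl1, Cxcl2 and Il6), against 1.41% of all 32851 promoters.

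Cxcl2 had 28.2, 0 and 58.5 rescaled FPKM in P60 libraries, against 2622, 2206 and 2252 in P7 libraries, a change of -7.61 ± 1.26 (adjusted p 0.00059). P60 replicate 3 had no Cxcl2 read, and the other P60 libraries were far below every P7 library. Cxcl1 had 0.434, 0 and 2.20 at P60, against 202, 231 and 117 at P7 (-6.74 ± 0.80, adjusted p 1.2e-05). Il6, the third promoter with the motif, was scarce at both ages, at 0, 7.75 and 0.686 in P60 libraries, against 1.43, 0.186 and 0 in P7 libraries, and was not called (adjusted p 0.69).

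The most abundant chemokines at P7 were Ccl2 and Ccl7, monocyte attractants encoded side by side on chromosome 11. Ccl2 had 137, 243 and 151 at P60, against 8468, 7702 and 8139 at P7 (-5.56 ± 1.32, adjusted p 0.015). The groups were far apart, yet of the fits that left out 1 library only that without P60 replicate 3 called Ccl2 (adjusted p 0.042, and up to 0.055 in the other 5). Ccl7 had 85.9, 36.8 and 34.1 at P60, against 6843, 6487 and 6899 at P7 (-7.11 ± 1.53, adjusted p 0.0073), and was called in all 6 such fits. Il10, an anti-inflammatory cytokine, had no read at P60, against 37.5, 37.9 and 14.7 at P7, at least 146-fold lower when 3 reads per library are taken as the floor (adjusted p 2.0e-05). Il1b, a pyrogenic cytokine, had 20.4, 0 and 4.32 at P60, against 197, 287 and 263 at P7 (-5.67 ± 1.17, adjusted p 0.0048, and 0.052 without P60 replicate 3). Cxcl10, an interferon-induced chemokine, was called lower (-3.63 ± 0.98, adjusted p 0.036), though in none of the fits that left out a library (up to 0.14). Tnf, with 163, 48.5 and 156 at P60, against 418, 596 and 378 at P7, and Ccl3, with 381, 275 and 385, against 3784, 3648 and 3239.8, had lower values in every P60 library but were not called (adjusted p 0.44 and 0.068). Il1a overlapped between the ages, at 162, 133 and 111 in P60 libraries, against 70.6, 136 and 124 in P7 libraries.

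**Figure D3:**
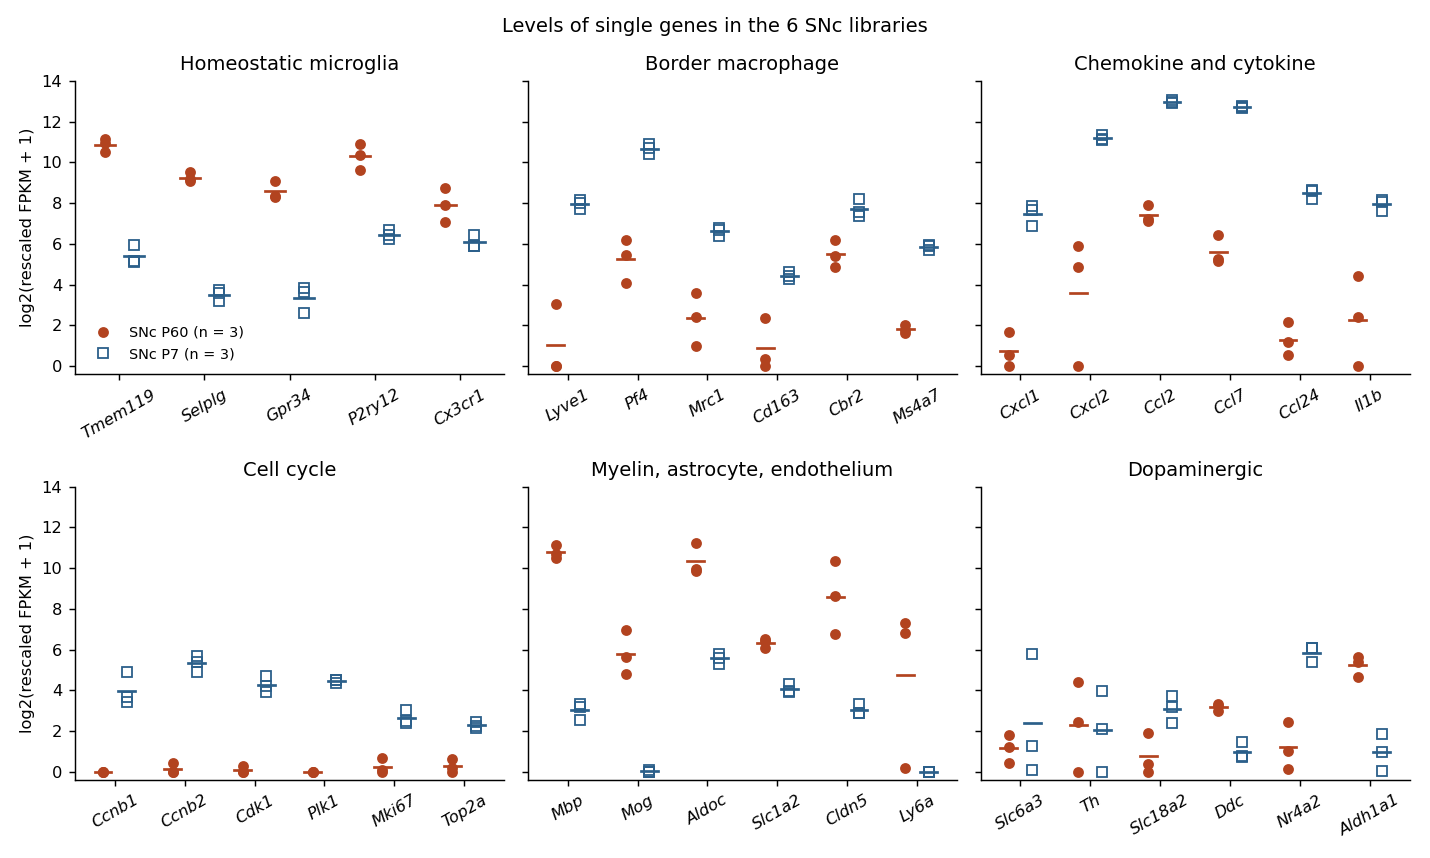
Level of single genes as log2(rescaled FPKM + 1) in the 3 SNc P60 libraries (filled circles, left) and the 3 SNc P7 libraries (open squares, right), in 6 panels by gene group. Bars mark the mean. Microglial, myelin, astrocyte and endothelial genes are higher at P60, border macrophage, chemokine and cell cycle genes are lower, and Slc6a3 and Th overlap.

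Receptors of inflammation and the feedback genes of NF-kB were in part lower. Of 18, 4 were called lower and 0 higher, with a median of -1.55; 1 was called lower with a pseudocount of 0.1 and 8 with the 6 compared libraries fitted alone. Tlr2, a receptor for bacterial lipoproteins, had 18.2, 5.33 and 7.94 rescaled FPKM in P60 libraries, against 241, 303 and 302 in P7 libraries (-4.77 ± 0.99, adjusted p 0.0051). Nfkbid, a nuclear regulator of NF-kB, had 37.3, 68.2 and 27.3 at P60, against 603, 661 and 719 at P7 (-3.97 ± 0.83, adjusted p 0.0055). Both were separated by age in every library. Bcl3 (-2.81 ± 0.55, adjusted p 0.0028) and Nfkb2 (-3.17 ± 0.78, adjusted p 0.019) were the other called members; of the fits that left out a library, Nfkb2 was called only in that without P60 replicate 3 (up to 0.088). Nfkbia, the main inhibitor of NF-kB, overlapped at 1120.0, 608 and 1651 at P60, against 1153, 1249 and 1147 at P7. Of 14 tested interferon response genes, 3 were called lower and 0 higher (1 to 3 lower with a library left out, 1 with a pseudocount of 0.1, median -0.95): Ifit2 (-4.20 ± 0.76, adjusted p 0.0014), Rsad2 (-2.64 ± 0.59, adjusted p 0.0098) and Mx1 (-2.51 ± 0.67, adjusted p 0.034), all 3 antiviral effectors. Rsad2 lost its call without P7 replicate 1 or P60 replicate 3 (up to 0.084), and Mx1 without P7 replicate 1, P7 replicate 2, P60 replicate 3 or P60 replicate 4 (up to 0.20). Of 13 tested antigen presentation genes none was called in either direction (median 0.93), while 2 were called higher with quantile normalization and 3 with the compared or the SNc libraries alone.

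Immediate early genes, which cells induce within minutes of a stimulus including tissue dissociation, were split. Of 22 tested, 5 were called lower and 0 higher, with a median of -0.88; with the compared or the SNc libraries alone 3 were called higher. Nr4a1, an orphan nuclear receptor, had 83.4, 87.04 and 72.4 rescaled FPKM in P60 libraries, against 1708, 1442 and 1406 in P7 libraries (-4.21 ± 0.81, adjusted p 0.0026). Its relative Nr4a3 had 0.136, 0.0134 and 1.05 at P60, against 17.2, 15.4 and 11.1 at P7 (-3.53 ± 0.55, adjusted p 0.00029). Egr3, a zinc finger transcription factor, and Fosl2, a Fos family member, were also called in all 6 fits with a library left out (-3.43 ± 0.64 and -3.45 ± 0.54, adjusted p 0.0021 and 0.00031). Egr2 had 18.5, 14.2 and 15.3 at P60, against 469, 504 and 497 at P7 (-4.86 ± 1.22, adjusted p 0.022), but was called in none of those fits (up to 0.079). The abundant members were not called: Fos overlapped between the ages, at 1544, 642 and 1455 at P60, against 729, 888 and 811 at P7, and Jun and Dusp1 had higher values in every P60 library (changes of 0.81 and 1.36, adjusted p 0.68 and 0.43). The cyclic AMP response motif TGACGTCA stood in 2 of 23 promoters of 19 of these genes (8.70%, Btg2 and Dusp1), against 1.55% of all promoters. The CArG box of serum response factor stood in 5 of 23 (21.7%, of the genes Egr2 and Zfp36), against 1.47%. Of the 8 promoters of called genes, 0 held TGACGTCA and 4, all of Egr2, held the CArG box. Of 12 heat shock genes none was called (median 0.04), and which part of these levels arose during dissociation was not tested.

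Rcan1, an inhibitor of calcineurin and another of the 15 largest decreases, had 7.28, 5.37 and 4.03 rescaled FPKM in P60 libraries, against 555, 565 and 532 in P7 libraries. The 3 libraries of each age lay close together, with a change of -6.42 ± 0.85 (adjusted p 4.7e-05). Tnfsf18, a ligand of the tumour necrosis factor family, had 0.689, 0 and 0 at P60, against 48.4, 52.2 and 58.3 at P7 (-5.50 ± 0.65, adjusted p 1.2e-05). Bmp2, a bone morphogenetic protein, had 0.172, 0.0226 and 0.690 at P60, against 45.5, 50.2 and 31.4 at P7 (-5.07 ± 0.56, adjusted p 6.4e-06). For each of these genes the P7 libraries formed a narrow range far above every P60 library, as they did for Phlda1, an early response gene with 2.996, 1.17 and 0.914 at P60, against 78.1, 75.8 and 57.6 at P7 (-4.80 ± 0.56, adjusted p 8.8e-06).

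Genes linked to microglia of proliferative regions and of damaged tissue did not move one way. Of 16, 1 was called higher and 5 lower (median -1.05, and -1.33 with Gpnmb, which had no read at P60, set at the bound given by 3 reads per library), and 3 or 4 lower and 0 higher with a library left out, and 3 lower on the deposited scale. Igf1, insulin-like growth factor, had 0.472, 0 and 0.310 rescaled FPKM at P60, against 26.4, 25.9 and 26.1 at P7 (-4.45 ± 0.76, adjusted p 0.00076). Lpl, lipoprotein lipase, had 1.90, 0.161 and 3.22 at P60, against 41.7, 39.5 and 32.8 at P7 (-4.00 ± 0.68, adjusted p 0.00069). Csf1, a growth factor of macrophages, had 3.08, 0.502 and 2.94 at P60, against 62.98, 38.8 and 34.6 at P7 (-3.96 ± 0.69, adjusted p 0.00091). In each of these 3 genes all P7 libraries were far above all P60 libraries. Apoe, a lipid carrier, had 2449, 1714 and 3418 at P60, against 8547, 9231 and 7978 at P7 (-1.82 ± 0.43, adjusted p 0.015); its call was lost without P7 replicate 1, P7 replicate 2 or P60 replicate 3 (up to 0.099). The protease gene Ctsb was called lower (-1.41 ± 0.40, adjusted p 0.044) and the tetraspanin gene Cd9 higher (2.16 ± 0.57, adjusted p 0.030), neither of them in any fit that left out a library (up to 0.13 and 0.11). Spp1, osteopontin, had 11.8, 14.8 and 15.3 at P60, against 199, 122 and 209 at P7, and was not called (adjusted p 0.054). Itgax and Clec7a, other genes of that state, overlapped between the ages.

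Cell cycle genes were lower at P60. Of 28, all of which passed the filter, 19 were called lower and 0 higher (12 to 16 with 1 library left out, 12 without P60 replicate 3). The median change was -2.26, or -2.51 with the 8 genes that had no read at P60 set at the bound given by 3 reads per library. Their summed level was 25.9 to 58.05 at P60, against 303 to 341 at P7. The promoters of 4 regulators of mitosis are shown because genes of this list moved together. They are the 150 bases before the RefSeq start (GRCm38.p6), chr13:100786487-100786636, chr9:70421555-70421704 and chr10:69352913-69353062 on the minus strand and chr7:122159285-122159434 on the plus strand. Capitals mark, on either strand, the NF-Y motif CCAAT and the cell cycle homology motif TTTGAA:
Ccnb1: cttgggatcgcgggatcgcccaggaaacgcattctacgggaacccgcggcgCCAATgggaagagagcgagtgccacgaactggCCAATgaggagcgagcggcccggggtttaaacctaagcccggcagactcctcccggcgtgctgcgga
Ccnb2: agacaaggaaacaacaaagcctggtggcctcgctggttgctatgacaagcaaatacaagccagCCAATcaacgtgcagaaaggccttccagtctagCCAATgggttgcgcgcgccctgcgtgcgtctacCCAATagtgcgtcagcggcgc
Cdk1: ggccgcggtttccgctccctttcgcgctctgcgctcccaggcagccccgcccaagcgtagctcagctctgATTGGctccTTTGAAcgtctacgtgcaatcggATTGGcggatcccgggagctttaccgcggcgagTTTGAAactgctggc
Plk1: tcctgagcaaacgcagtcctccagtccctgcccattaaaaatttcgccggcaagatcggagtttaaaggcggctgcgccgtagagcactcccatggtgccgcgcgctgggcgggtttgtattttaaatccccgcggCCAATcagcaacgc
CCAAT occurs 2 times in Ccnb1, 3 times in Ccnb2, 2 times in Cdk1 and 1 time in Plk1, and TTTGAA 2 times in Cdk1, with no overlap between the motifs. Over 250 bases before the start, on either strand, CCAAT stood in 21 of the 25 promoters of this list that are in the table (84%), against 33.9% of all 32851 promoters, and TTTGAA in 7 of 25 (28%), against 16.0%.

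Ccnb1, the cyclin that activates Cdk1 at mitosis, had no read in the P60 libraries, against 11.6, 9.54 and 28.3 rescaled FPKM in P7 libraries, at least 257-fold lower (adjusted p 6.4e-06). Plk1, a mitotic kinase, likewise had no read at P60, against 21.8, 21.99 and 19.4 at P7 (at least 172-fold lower, adjusted p 0.00066). Ccnb2 had 0, 0 and 0.343 at P60, against 49.8, 29.1 and 40.9 at P7 (-5.18 ± 0.83, adjusted p 0.00040). At P60 its reads, as those of Cdk1, came from replicate 4 alone. Cdk1, the mitotic kinase itself, had 0, 0 and 0.213 at P60, against 17.2, 14.3 and 25.2 at P7 (-4.18 ± 0.67, adjusted p 0.00039). Mki67, the proliferation antigen Ki-67, had 0.0606, 0 and 0.583 at P60, against 4.59, 7.22 and 4.18 at P7 (-2.38 ± 0.41, adjusted p 0.00074). Cdca3, Cdca8, Birc5, Aurkb and Ube2c, which act in chromosome segregation or in protein destruction at mitosis, had no read at P60 and were at least 147-, 138-, 116-, 103- and 43.1-fold lower (adjusted p 0.0045, 0.0037, 0.00048, 0.0018 and 0.026).

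Some calls of this list rested on single libraries. Top2a, Nusap1 and Ube2c were called with all libraries but in no fit that left one out (adjusted p up to 0.16, 0.16 and 0.11). Aurka lost its call without P7 replicate 3 or P60 replicate 3 (up to 0.072), and Cenpe without P7 replicate 3 (up to 0.053). Of the replication genes, the helicase subunits Mcm2 and Mcm6 were called lower (adjusted p 0.026 and 0.017). Mcm2 lost its call without P7 replicate 1, P7 replicate 2, P60 replicate 1 or P60 replicate 3, and Mcm6 kept it in the fit without P60 replicate 4 alone (up to 0.15 and 0.11). Pcna, the sliding clamp of DNA polymerase, had 34.05, 19.5 and 26.4 at P60, against 68.7, 57.3 and 64.02 at P7, and was not called (adjusted p 0.51). Tyms, a thymidylate synthase, overlapped at 2.55, 3.09 and 2.23 at P60, against 2.68, 3.75 and 1.77 at P7.

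Myelin genes were higher at P60. Of 14 genes of myelinating oligodendrocytes, 8 were called higher and 0 lower (6 to 8 with 1 library left out, 6 without P60 replicate 3, and 5 on the deposited scale), the median change was 3.13, and the list summed to 2540.2 to 2792 at P60, against 65.1 to 96.8 at P7. Mbp, myelin basic protein, had 1669.6, 1432 and 2252 rescaled FPKM in P60 libraries, against 9.16, 4.79 and 7.98 in P7 libraries, a change of 7.76 ± 0.52 (adjusted p 2.0e-09). Mobp, another basic myelin protein, had 222, 139.6 and 136 at P60, against 1.66, 0.209 and 0.203 at P7 (6.69 ± 0.78, adjusted p 1.0e-05). Both genes were separated by age by far more than the spread within either age. Mag, an adhesion protein of the inner myelin layer, had 111, 55.1 and 59.6 at P60, against 2.72, 1.57 and 3.54 at P7 (4.36 ± 0.70, adjusted p 0.00041). Mog, at the outer myelin surface, had 49.3, 123 and 26.7 at P60, against 0.0425, 0 and 0 at P7, where it rested on 1 read (5.78 ± 1.25, adjusted p 0.0075, and 0.051 without P60 replicate 3). P60 replicate 3 was the highest library for Mog and the lowest for Mbp.

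Ermn (3.59 ± 0.62, adjusted p 0.00091) and Gjc3 (3.02 ± 0.60, adjusted p 0.0036) were called in all 6 fits that left out a library. Opalin, also called (3.13 ± 0.79, adjusted p 0.023), was not called without P7 replicate 1, P7 replicate 2, P60 replicate 1 or P60 replicate 3 (up to 0.15). Myrf, the transcription factor of myelination, overlapped at 1.82, 0.319 and 1.73 at P60, against 1.68, 0.0880 and 0 at P7, and Trf, transferrin, at 37.6, 37.05 and 26.9, against 28.2, 22.4 and 30.8. Of 12 genes of oligodendrocyte precursors, 3 were called higher and 0 lower (1 or 2 with a library left out, 1 with no filter on low values, median 0.80). Bcas1, a gene of newly formed oligodendrocytes, had 30.4, 19.95 and 31.7 at P60, against 0.441, 1.20 and 1.30 at P7 (3.84 ± 0.66, adjusted p 0.00078). Gpr17 and Neu4 were called (3.04 ± 0.86 and 2.97 ± 0.80, adjusted p 0.048 and 0.035), Gpr17 in no fit that left out a library and Neu4 only in that without P60 replicate 4 (up to 0.18 and 0.15). The precursor genes Pdgfra, Cspg4, Olig1, Olig2 and Sox10 overlapped between the ages.

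Astrocyte genes were higher at P60. Of 16, 9 were called higher and 0 lower (7 or 8 with 1 library left out, 7 without P60 replicate 3, and 3 on the deposited scale), with a median of 2.18 and a summed level of 2598 to 3783 at P60, against 317 to 454 at P7. Glul, glutamine synthetase, had 354, 323 and 348 rescaled FPKM in P60 libraries, against 48.4, 51.6 and 40.7 in P7 libraries (2.84 ± 0.40, adjusted p 9.3e-05). Slc1a2, the main glutamate transporter of astrocytes, had 85.1, 65.7 and 90.2 at P60, against 18.7, 14.8 and 14.3 at P7 (2.26 ± 0.46, adjusted p 0.0040). Gjb6, a gap junction connexin, had 104, 96.6 and 82.999 at P60, against 3.17, 3.72 and 4.08 at P7 (4.36 ± 0.68, adjusted p 0.00034). These 3 genes were separated by age in every library. Slc4a4, a bicarbonate transporter (2.49 ± 0.47, adjusted p 0.0023), Ntsr2, a neurotensin receptor (4.13 ± 0.84, adjusted p 0.0041), and S100b, a calcium-binding protein (3.98 ± 0.88, adjusted p 0.0090), were called in all 6 fits that left out a library. Aldoc, a glycolytic aldolase, was called (4.79 ± 1.26, adjusted p 0.030) but in none of those fits (up to 0.13), and the connexin Gja1 was called (1.98 ± 0.50, adjusted p 0.023) but not without P7 replicate 2, P7 replicate 3, P60 replicate 1 or P60 replicate 3 (up to 0.11). The glutamate transporter gene Slc1a3 and the folate enzyme gene Aldh1l1 overlapped, Slc1a3 at 34.6, 28.9 and 26.8 at P60, against 41.8, 28.3 and 30.000 at P7. Gfap overlapped as well, with P7 replicate 3 highest.

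Endothelial genes were higher at P60 and varied widely among the P60 libraries. Of 18, 11 were called higher and 0 lower (6 to 9 with 1 library left out, 9 without P60 replicate 3), with a median of 2.75, or 2.94 with the 2 genes that had no read at P7 at their bound. The list summed to 1858 to 4601 at P60, against 381 to 394 at P7. Cldn5, the tight junction protein of brain vessels, had 396, 108 and 1283 rescaled FPKM in P60 libraries, against 6.40, 8.88 and 6.41 in P7 libraries (5.55 ± 1.10, adjusted p 0.0033). P60 replicate 4 was the highest and P60 replicate 3 the lowest. Ly6c1, a surface antigen of brain endothelium, had 123, 16.8 and 217 at P60, against 0, 0.0449 and 0 at P7, where it rested on 1 read (6.27 ± 0.99, adjusted p 0.00034). Ly6a had 112, 0.133 and 155 at P60, against no read at P7, at least 486-fold higher on the mean of the P60 libraries (adjusted p 0.038). As P60 replicate 3 was near 0 for Ly6a, its call held only in the fit without that library (adjusted p 0.00039, and up to 0.21 in the other 5). Bsg, basigin, had 1873, 1412 and 2353 at P60, against 312, 347 and 331 at P7 (2.48 ± 0.37, adjusted p 0.00016), the most abundant gene of the list. Esam (5.00 ± 0.85, adjusted p 0.00076), Car4 (5.01 ± 1.12, adjusted p 0.0094) and the drug efflux pump Abcb1a (2.61 ± 0.59, adjusted p 0.0099) were called in all 6 such fits.

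Other endothelial calls rested on 1 or more libraries. Flt1, a receptor of vascular growth factors, and Slco1a4, an organic anion transporter, were called (3.37 ± 0.71 and 3.10 ± 0.65, adjusted p 0.0057 and 0.0057) but not without P60 replicate 4 (0.052 and 0.053). Slc2a1, the glucose transporter of the blood-brain barrier, was called (2.78 ± 0.73, adjusted p 0.030) but in no fit that left out a library (up to 0.11), and Itm2a (3.54 ± 0.91, adjusted p 0.027) only in that without P7 replicate 3 (up to 0.13). Pecam1, Cdh5 and Mfsd2a had higher values in every P60 library but were not called (adjusted p 0.17, 0.077 and 0.061). None of the 12 tested genes of mural cells and fibroblasts was called (median 0.62), nor any of 8 genes of ependyma and choroid plexus (median 0.63).

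The largest increases outside the lists included genes of several kinds. Thrsp, a regulator of lipid synthesis (chromosome 7, bases 97412938 to 97417730), had 49.3, 132 and 37.3 rescaled FPKM in P60 libraries, against no read in P7 libraries, at least 722-fold higher (adjusted p 2.5e-06). Tmem204, a membrane protein, had 61.9, 89.9 and 95.1 at P60, against 0, 0 and 0.647 at P7 (6.12 ± 1.25, adjusted p 0.0044). Sfrp5, a secreted antagonist of Wnt, had 33.97, 29.7 and 68.99 at P60, against 0, 0 and 0.385 at P7 (5.24 ± 0.80, adjusted p 0.00025). At P7 only replicate 3 had reads of Tmem204 and Sfrp5. Myl9, a myosin light chain, had 104, 174 and 46.6 at P60, against 0.935, 2.46 and 1.95 at P7 (5.14 ± 1.19, adjusted p 0.012), and was not called without P7 replicate 1 or P60 replicate 3 (up to 0.072).

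Genes of dopaminergic neurons did not move together. Of 13 genes of dopamine synthesis and handling, 1 was called higher and 2 lower (median 0.47, or 0.48 with 2 genes at their bound), with the same counts in each fit that left out a library. With quantile normalization, with the compared or the SNc libraries alone, or without VTA P30 replicate 3, 4 were called higher. Aldh1a1, an aldehyde dehydrogenase of ventral SNc neurons that other brain cells also express, had 40.2, 48.4 and 24.5 rescaled FPKM in P60 libraries, against 0.0294, 0.962 and 2.58 in P7 libraries (4.27 ± 0.82, adjusted p 0.0026). Ddc, the decarboxylase that makes dopamine, had 8.41, 6.88 and 8.94 at P60, against 0.698, 1.71 and 0.673 at P7, higher in every P60 library but just short of a call (2.19 ± 0.63, adjusted p 0.0503). Gch1, which makes the cofactor of Th, had 1.32, 0 and 0.603 at P60, against 10.95, 14.6 and 14.97 at P7 (-3.21 ± 0.48, adjusted p 0.00020). Slc10a4, a transporter of synaptic vesicles, had no read at P60, against 6.47, 10.8 and 10.9 at P7, at least 73.2-fold lower (adjusted p 0.0098). For Slc6a3 the change was -1.22 ± 0.92 (adjusted p 0.57) and for Th 0.24 ± 0.96 (adjusted p 0.96), with overlapping groups. Slc18a2 had 2.75, 0 and 0.2995 at P60, against 12.1, 4.16 and 8.13 at P7 (-2.33 ± 1.04, adjusted p 0.26), lower in every P60 library but not called. Drd2, the dopamine autoreceptor, had reads in P60 replicate 4 only.

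Of 9 transcription factors of these neurons, 2 passed the filter, and Nr4a2 was called lower. It had 1.002, 0.0990 and 4.49 rescaled FPKM in P60 libraries, against 65.7, 65.97 and 40.2 in P7 libraries (-4.63 ± 0.61, adjusted p 4.7e-05), and the groups were far apart. Nr4a2 (chromosome 2, bases 57106830 to 57124003) is known both as a factor of dopaminergic identity and as an immediate early gene of other cells, its relatives Nr4a1 and Nr4a3 also being lower. Which cells its reads came from was not tested. Lmx1a, Lmx1b, Foxa1, En1 and En2 had reads in 1 library each, at values below 0.5. Of 10 tested genes enriched in dopaminergic neurons of the SNc, Aldh1a1 was the 1 called (higher) and 0 were lower. Of 9 tested genes enriched in those of the VTA, 0 were called higher and 1 lower, Slc17a6, described below.

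Genes of growing neurons were lower at P60. Of 18 genes of immature neurons and axon growth, 7 were called lower and 0 higher (5 or 6 with 1 library left out, 6 without P60 replicate 3, and 11 without VTA P30 replicate 3), with a median of -2.22. They summed to 271 to 433 at P60, against 3141 to 3808 at P7. Most of that sum at P7 was Marcksl1, a regulator of actin that microglia and other young cells also express, with 44.3, 73.2 and 30.5 rescaled FPKM at P60, against 2215, 2376 and 2729.7 at P7 (-5.68 ± 0.83, adjusted p 0.00015). Crmp1, a mediator of semaphorin signals in growth cones, had 0.0144, 0.137 and 0.261 at P60, against 21.9, 20.3 and 23.1 at P7 (-4.33 ± 0.52, adjusted p 1.2e-05). Stmn2, a microtubule regulator of growing axons, had 1.27, 0.115 and 3.75 at P60, against 51.1, 53.1 and 37.4 at P7 (-4.38 ± 0.60, adjusted p 7.4e-05). These genes were separated by age in every library. Dpysl3, a relative of Crmp1, and Dcx, doublecortin, were called in all 6 fits that left out a library (-3.42 ± 0.65 and -2.01 ± 0.41, adjusted p 0.0024 and 0.0044). Sox11, a transcription factor of neuronal precursors (-2.41 ± 0.55, adjusted p 0.011), lost its call without P7 replicate 2 or P60 replicate 4 (up to 0.063). Dpysl4 (-1.88 ± 0.47, adjusted p 0.021) was called only in the fit without P60 replicate 4 (up to 0.15). Gap43, the growth cone protein, had 39.7, 26.8 and 29.3 at P60, against 182, 265 and 153 at P7, lower in every P60 library but not called (adjusted p 0.12). Scg2, a granin of secretory vesicles, was among the 15 largest decreases, at 0.687, 0.224 and 9.23 in P60 libraries, against 94.7, 119 and 107 in P7 libraries (-5.28 ± 0.96, adjusted p 0.0016).

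Genes of mature neurons were low at both ages. Of 16 pan-neuronal genes, 2 were called lower and 0 higher (median -0.70; 4 lower with quantile normalization or without VTA P30 replicate 3, 1 with a pseudocount of 0.1): Stmn2, above, and Syt1, the calcium sensor of vesicle release. Snap25, a vesicle fusion protein, overlapped at 13.98, 10.7 and 18.6 rescaled FPKM at P60, against 14.3, 15.1 and 20.7 at P7, as did Rbfox3, the neuronal nuclear antigen, at 3.32, 4.16 and 6.39, against 7.77, 4.96 and 10.3. Of 20 genes of synaptic vesicles and release, 4 were called lower and 0 higher (median -0.95), and 0 to 4 were called with a library left out, 0 of them without P60 replicate 3. With a pseudocount of 0.1 there were 0 calls, with the compared libraries alone 1, and with voom, limma's weighting for counts, on the reads recovered from the values 2. Syt1 had 6.58, 0.174 and 4.30 at P60, against 29.004, 23.1 and 19.8 at P7 (-2.77 ± 0.62, adjusted p 0.0092, and 0.094 without P60 replicate 3). Syt4, Syp and Syn1, all vesicle proteins, were called with changes of -2.99 ± 0.75, -2.22 ± 0.55 and -2.52 ± 0.66 (adjusted p 0.021, 0.022 and 0.030, and 0.16, 0.17 and 0.17 without P60 replicate 3). Syt4 was also not called without P7 replicate 2 or 3, Syp without any of the P7 replicates, and Syn1 was called in the fit without P60 replicate 4 alone (up to 0.16, 0.17 and 0.17). P60 replicate 3 was the lowest library for each of these 4 genes.

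Transmitter systems of other neurons gave few calls. Of 13 tested genes of GABAergic neurons, 1 was called lower and 0 higher: Gad1, which makes GABA, had 2.01, 0.0842 and 0.447 rescaled FPKM at P60, against 16.7, 11.2 and 10.8 at P7 (-3.02 ± 0.65, adjusted p 0.0074, and 0.051 without P60 replicate 3). Of 6 tested genes of glutamatergic neurons, 1 was called lower and 0 higher: Slc17a6, a vesicular glutamate transporter, had 0.452, 1.03 and 1.25 at P60, against 12.1, 5.25 and 14.1 at P7 (-2.52 ± 0.66, adjusted p 0.031), and of the fits that left out a library only that without P7 replicate 2 called it (up to 0.14). Among 16 glutamate receptors and scaffolds, Grin2b, a receptor subunit of the young brain, was called lower (-2.09 ± 0.49, adjusted p 0.013) and 0 genes higher; its call was lost without P7 replicate 2, P7 replicate 3 or P60 replicate 3 (up to 0.093). Among 16 GABA and glycine receptors, Gabra5 (-2.66 ± 0.51, adjusted p 0.0028) and Glra2 (-2.01 ± 0.43, adjusted p 0.0067) were called lower and 0 genes higher, the same 2 in each fit that left out a library. Avp, the hypothalamic hormone vasopressin, had 2.29, 0.975 and 16.4 at P60, against 46.8, 57.96 and 1043 at P7, with P7 replicate 3 far above the rest (-4.89 ± 1.05, adjusted p 0.0073, up to 0.074 without P7 replicate 3 or P60 replicate 3).

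Signalling and metabolic lists held fewer calls. Of 12 tested purinergic genes, 3 were called higher, P2ry12, P2ry13 and the adenosine receptor Adora3 (2.91 ± 0.73, adjusted p 0.022), and 1 lower, P2ry2 (-2.16 ± 0.50, adjusted p 0.013). With voom 1 of the list was called higher. Adora3 was called only in the fit without P7 replicate 1 among those that left out a library, and P2ry2 lost its call without P7 replicate 1 or P60 replicate 3 (up to 0.12 and 0.084). Of 15 genes of TGF-beta and CSF1 signalling, Tgfbr1, a receptor for TGF-beta, was called higher (1.92 ± 0.54, adjusted p 0.043, but in no fit that left out a library, up to 0.13) and Csf1 lower. Of 20 lysosomal genes, 1 was called higher and 1, Ctsb, lower. Of 20 genes of cholesterol synthesis and export, 3 were called lower and 0 higher (median -0.66; 0 lower with a pseudocount of 0.1 or with voom, and 1 with the replicate number as a block), among them Idi1 (-1.89 ± 0.51, adjusted p 0.033) and Hmgcs1 (-1.98 ± 0.54, adjusted p 0.036), and without P60 replicate 3 none of the 3 (adjusted p 0.14 and 0.14 for these genes). Idi1 held in the fit without P60 replicate 1 alone, and Hmgcs1 in none (up to 0.14 and 0.14). Of 19 glycolytic genes, 3 were called higher and 0 lower (median 0.25; 1 higher with a pseudocount of 0.1, voom or the replicate block, and 5 with SNc libraries alone or without VTA P30 replicate 3): Slc2a1, Hk2, a hexokinase (2.88 ± 0.73, adjusted p 0.025, up to 0.14 and called only without P60 replicate 4), and Ldhb, a lactate dehydrogenase subunit. Ldhb had 920.1, 854 and 863 rescaled FPKM at P60, against 107, 146 and 119 at P7 (2.83 ± 0.60, adjusted p 0.0064), and was called in all 6 such fits.

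Genes of oxidative phosphorylation encoded in the nucleus (0 of 27 called, median 0.22), of ribosomal proteins (0 of 34, median -0.50) and on the sex chromosomes (0 of 4) gave no call. Of 13 genes encoded in the mitochondrion, mt-Nd3 was called lower (-2.75 ± 0.62, adjusted p 0.0098, and 0.073 without P60 replicate 3) and 0 higher. Of 6 tested blood genes, 2 were called lower and 0 higher (median -2.79), with 5 lower without P7 replicate 3 and 1 in each other fit that left out a library. Ppbp, a platelet chemokine, had no read at P60, against 1.61, 8.07 and 23.1 at P7, at least 43.8-fold lower (adjusted p 0.00036). Hba-a1, which shares its sequence with Hba-a2 so that reads may be split between them, was called lower (-3.63 ± 0.97, adjusted p 0.033), but of the fits with a library left out only in that without P7 replicate 3 (up to 0.20).

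Lists of other blood cells differed in summed level, which rested on few genes. Genes of monocytes and neutrophils summed to 0 to 6.47 rescaled FPKM at P60, against 18.1 to 29.6 at P7, and those of lymphocytes to 48.1 to 80.3 at P60, against 30.4 to 32.96 at P7. Most of the P7 sum of monocytes and neutrophils was Mmp9. Only 2 or 3 of the 12 lymphocyte genes had a read in each of the 6 libraries. Of 6 tested genes of monocytes and neutrophils, Mmp9, a matrix protease, was called lower, at 0, 0 and 0.149 rescaled FPKM at P60, against 20.1, 23.3 and 14.2 at P7 (-4.24 ± 0.59, adjusted p 7.4e-05), and 0 were called higher, while Ccr2, S100a8 and S100a9 stayed below 3 in every library. Of 12 lymphocyte genes 3 passed the filter. Trac, the constant region of the T cell receptor alpha chain, had 11.1, 39.4 and 18.5 at P60, against no read at P7, at least 97.2-fold higher (adjusted p 0.00012), while Cd3e, Cd3g, Cd8a and Nkg7, which T and killer cells carry, had no read in any of the 6 libraries. Cd4, which macrophages also express, had 0.630, 0 and 1.59 at P60, against 16.9, 20.4 and 18.7 at P7 (-3.60 ± 0.50, adjusted p 8.6e-05).

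The P30 libraries of the SNc are given for the gene groups above as ranges of the summed rescaled FPKM over 3 libraries with no test. Homeostatic microglia genes summed to 3085 to 3527 at P7, 20038 to 29213 at P30 and 19635 to 26356 at P60, where most of the sum was Cst3. Chemokines and cytokines summed to 23793 to 25513 at P7, 1419 to 2676 at P30 and 1205 to 1936 at P60. Cell cycle genes summed to 303 to 341 at P7, 46.3 to 82.7 at P30 and 25.9 to 58.05 at P60. In these 3 lists the P30 and P60 ranges overlapped, and neither overlapped with P7. Myelin genes did not follow that pattern, with 65.1 to 96.8 at P7, 519.9 to 1173 at P30 and 2540.2 to 2792 at P60, 3 ranges apart from each other. Astrocyte genes summed to 317 to 454 at P7, 2651 to 4439.9 at P30 and 2598 to 3783 at P60, and endothelial genes to 381 to 394 at P7, 955 to 1964 at P30 and 1858 to 4601 at P60. Genes of ependyma and choroid plexus were highest at P30, with 9.55 to 23.4 at P7, 263 to 7809.8 at P30 and 61.2 to 98.7 at P60.

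Whether the change in the SNc differed from that in the NAc was tested as the difference of the 2 changes, SNc minus NAc. Libraries of the 2 regions may come from the same mice, and the test has no term for mouse. Of 18888 genes, 174 were called (0.921%), 48 of them with a positive difference (0.254%) and 126 with a negative one (0.667%). With a pseudocount of 0.1 in place of 1 the count was 32, of which 22 were positive and 10 negative. With voom it was 96 (65 positive and 31 negative), so that the balance of directions differed between these settings and the main fit. Leaving out 1 of the 12 compared libraries gave 52 to 304, the lowest without NAc P7 replicate 1 and the highest without NAc P60 replicate 4, and 96 without SNc P60 replicate 3. Of 36 genes with a called difference that belong to the lists or are named here, 17 were called whichever library was left out; the highest adjusted p of those fits is given for the others. Of the 16 chemokine and cytokine genes, 0 had a positive difference and 2 a negative one. Yet the median change of that list was -4.79 in the NAc, against -2.90 in the SNc, with a median difference of 1.54. Of the 28 cell cycle genes, 0 differed in either direction, with median changes of -3.75 in the NAc and -2.26 in the SNc. Of the 16 homeostatic microglia genes, 4 had a positive difference and 0 a negative one. Tmem119 changed by 5.47 in the SNc and by 1.28 in the NAc, where it had 250.4, 716 and 758 rescaled FPKM at P60, against 199, 213 and 224 at P7 (values from lowest to highest). The difference was 4.19 ± 0.88 (adjusted p 0.019), and was not called without SNc P7 replicate 2 or 3 or without any of the NAc P7 replicates (up to 0.056). Selplg (difference 4.26 ± 0.75, adjusted p 0.0074) and Cx3cr1 (4.46 ± 0.88, adjusted p 0.014) were also among them. Arl11, a small GTPase of macrophages, gave the largest positive difference among the named genes: it had 10.2, 37.2 and 25.2 in SNc P60 libraries, against 0.431, 0.0690 and 0.0671 in SNc P7 libraries, and 0, 0.0825 and 1.999 in NAc P60 libraries, against 6.56, 10.99 and 16.2 in NAc P7 libraries (difference 7.22 ± 1.03, adjusted p 0.0012). Blnk, Rgs1, Rasal3 and Glipr1, which leukocytes express, had positive differences as well (5.67 ± 1.16, 5.68 ± 0.92, 5.71 ± 0.99 and 5.44 ± 1.31, adjusted p 0.018, 0.0038, 0.0067 and 0.043). They changed by 3.03, 1.61, 2.11 and 1.92 in the SNc, and by -2.64, -4.07, -3.61 and -3.52 in the NAc. Within the SNc, Rgs1, Rasal3 and Glipr1 were not called (adjusted p 0.20, 0.096 and 0.31). Blnk was called higher there (0.036), but in no fit that left out an SNc library (up to 0.13). The difference of Blnk was not called without NAc P7 replicate 1 or 3 (up to 0.053). That of Glipr1 was called in 1 of 12 such fits, the one without SNc P7 replicate 3 (up to 0.13).

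Several of these differences depended on the processing, and the reason for each lost call was not tested. With voom the differences of Tmem119 and Selplg, and of Syn1, Camk2a, Rcan1, Cxcl1, Tnfsf18, Phlda1 and Bmp2 given next, were not called. With a pseudocount of 0.1 those of Rasal3, Blnk, Glipr1, Gad1, Syn1, Camk2a, Rcan1, Cxcl1, Tnfsf18 and Bmp2 were not called, and on the deposited scale those of Selplg, Cx3cr1, Arl11, Rgs1, Glipr1 and Phlda1 (adjusted p up to 0.699 over all alternatives, for Bmp2). The difference of Glipr1 was also not called with no filter on low values or with the replicate block, whereas Nr4a2, Avp and Fmod were called in every alternative run. Neuronal genes differed between these regions in the other direction. Of 20 genes of synaptic vesicles and release, 5 had a negative difference and 0 a positive one, and of 16 pan-neuronal genes 3 and 0. Syn1, a synapsin, changed by -2.52 in the SNc and 1.82 in the NAc, where it had 17.996, 44.8 and 60.4 rescaled FPKM at P60, against 7.20, 10.6 and 11.7 at P7 (difference -4.35 ± 0.94, adjusted p 0.023). It was not called without SNc P7 replicate 1 or 2, SNc P60 replicate 3 or any of the NAc P7 replicates (up to 0.077). Camk2a, a kinase of glutamatergic synapses, overlapped in the SNc and changed by 3.63 in the NAc, where it had 123, 149.5 and 311 at P60, against 12.9, 13.1 and 14.5 at P7 (difference -3.79 ± 0.92, adjusted p 0.045), called in 2 of 12 fits that left out a library, those without NAc P60 replicate 3 or 4 (up to 0.12). Nr4a2 changed by -4.63 in the SNc and 0.81 in the NAc, where it had 1.86, 2.78 and 9.13 at P60, against 0.441, 2.74 and 2.74 at P7 (difference -5.45 ± 0.86, adjusted p 0.0037). Gad1 was lower at P60 in the SNc and changed by 2.47 in the NAc (difference -5.49 ± 0.92, adjusted p 0.0054). Avp had the largest negative difference among the named genes, -10.46 ± 1.49 (adjusted p 0.0012), with 75.4, 80.2 and 169.9 in NAc P60 libraries, against 0.597, 1.05 and 2.04 in NAc P7 libraries. Rcan1 changed by -6.42 in the SNc and -0.85 in the NAc, where it had 7.68, 7.74 and 20.1 at P60, against 17.01, 19.6 and 24.4 at P7 (difference -5.57 ± 1.20, adjusted p 0.022), and was not called without SNc P60 replicate 3 or any of the SNc or NAc P7 replicates (up to 0.066). Cxcl1, Tnfsf18, Phlda1, Bmp2 and Fmod had negative differences of -5.34 ± 1.13, -4.81 ± 0.92, -4.85 ± 0.79, -4.24 ± 0.80 and -5.76 ± 0.90 (adjusted p 0.020, 0.012, 0.0038, 0.010 and 0.0037), Cxcl1 losing its call without SNc P7 replicate 1 or 2, SNc P60 replicate 3 or NAc P7 replicate 1 or 2 (up to 0.065). In the NAc, Cxcl1 had 0, 0 and 0 at P60, against 1.14, 1.30 and 2.68 at P7. Tnfsf18 had 0, 0 and 0 there at P60, against 0.0588, 0.645 and 1.40 at P7. Both genes thus also fell to 0 in the NAc, from low P7 values whose change the log2 scale understates.

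**Figure D4:**
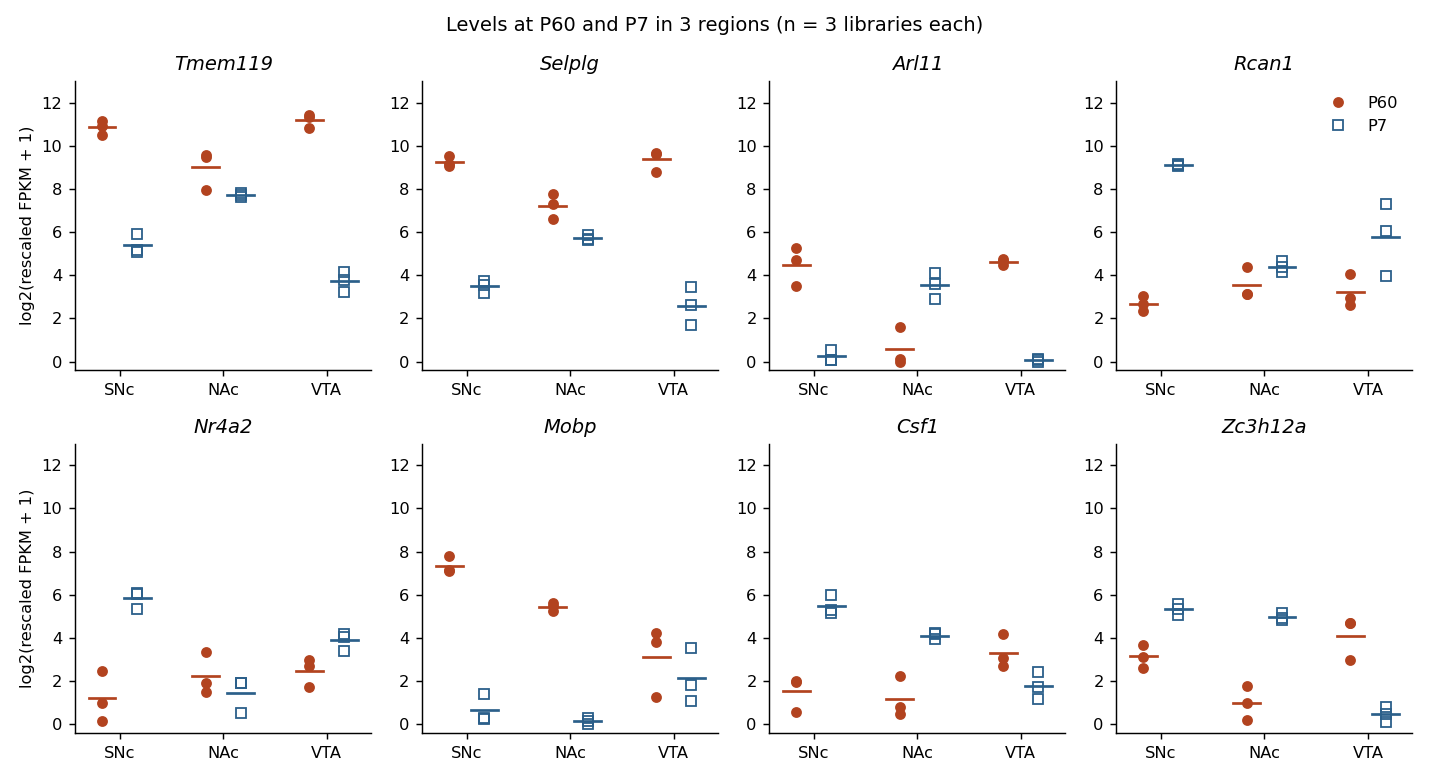
Level of 8 genes as log2(rescaled FPKM + 1) in the SNc, NAc and VTA, with P60 libraries (filled circles) left of P7 libraries (open squares) and bars at the mean of 3 libraries. Tmem119, Selplg and Arl11 are higher at P60 in the SNc and VTA, with a smaller increase of Tmem119 and Selplg and lower values of Arl11 at P60 in the NAc, Rcan1 and Nr4a2 are high at P7 in the SNc, Mobp is highest in the SNc at P60, and Csf1 and Zc3h12a are lower at P60 in the SNc and higher at P60 in the VTA.

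The same test, also without a term for mouse, was made against the VTA. As the difference SNc minus VTA, 73 of 18888 genes were called (0.386%), 8 positive (0.0424%) and 65 negative (0.344%), and 31 to 130 with 1 of the compared libraries left out, the lowest without SNc P60 replicate 3 and the highest without VTA P7 replicate 2. Of 16 such genes that belong to the lists or are named here, 10 were called whichever library was left out. None of the homeostatic microglia or chemokine genes was among them. The median difference was -0.41 over the homeostatic microglia genes and -3.19 over the chemokine and cytokine genes. Median changes of these lists were 3.31 and 0.34 in the VTA, against 3.21 and -2.90 in the SNc. The lack of calls therefore does not show that chemokine genes change alike in both regions. Mbp changed by 7.76 in the SNc and 3.21 in the VTA, where it had 86.9, 130.2 and 135 rescaled FPKM at P60, against 4.56, 17.2 and 18.7 at P7 (difference 4.55 ± 0.74, adjusted p 0.0035). Mobp changed by 6.69 in the SNc and 0.96 in the VTA, where the libraries overlapped at 1.43, 12.9 and 17.7 at P60, against 1.11, 2.49 and 10.7 at P7 (difference 5.74 ± 1.11, adjusted p 0.016). These were the 2 myelin genes with a called difference. That of Mobp was not called with the replicate number as a block, with voom, with a pseudocount of 0.1 or with the compared libraries alone (adjusted p up to 0.124), and that of Mbp not with voom or on the deposited scale (up to 0.136). Csf1 changed by -3.96 in the SNc and 1.55 in the VTA, where it had 5.50, 7.54 and 17.1 at P60, against 1.26, 2.34 and 4.35 at P7 (difference -5.50 ± 0.97, adjusted p 0.0073). Zc3h12a, an RNase that destroys cytokine transcripts, had 11.6, 5.19 and 7.81 in SNc P60 libraries, against 32.96, 45.998 and 39.6 in SNc P7 libraries, and 6.78, 24.5 and 24.98 in VTA P60 libraries, against 0.0688, 0.405 and 0.725 in VTA P7 libraries (difference -5.84 ± 1.14, adjusted p 0.016). That difference was not called without SNc P60 replicate 3 or VTA P60 replicate 3 (up to 0.056). Phlda1, Bmp2 and Fosl2 had negative differences of -5.68 ± 0.79, -4.999 ± 0.80 and -4.81 ± 0.76 (adjusted p 0.0013, 0.0035 and 0.0035). Fabp7, a fatty acid binding protein of radial glia, was lower at P60 in both regions, with 12.9, 15.2 and 23.1 in SNc P60 libraries, against 97.7, 82.1 and 78.7 in SNc P7 libraries, and 0.436, 3.19 and 3.48 in VTA P60 libraries, against 304, 332 and 431 in VTA P7 libraries (difference 4.58 ± 0.94, adjusted p 0.024), and its difference was not called without SNc P7 replicate 2 or 3, SNc P60 replicate 3 or 4 or VTA P60 replicate 2 (up to 0.073). The vesicle trafficking gene Rab33a and the cytoskeletal gene Farp1 had positive differences of 5.05 ± 0.83 and 4.56 ± 1.00 (adjusted p 0.0035 and 0.039); Farp1 was not called without any 1 of the 6 SNc libraries, VTA P7 replicate 3 or VTA P60 replicate 2 (up to 0.12). Among these genes, the differences of Zc3h12a, Fabp7 and Farp1 were not called with the replicate block or with a pseudocount of 0.1, those of Csf1, Bmp2 and Fosl2 not with that pseudocount or with voom, and that of Phlda1 not on the deposited scale (adjusted p up to 0.378, for Fabp7). Fabp7 and Farp1 were also not called with voom, Fabp7 not on the deposited scale, and Farp1 not with the compared libraries alone or with no filter. Rab33a was called in every alternative run.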

How the data were processed

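The authors deposited FPKM values for each library, per the file headers, and per the submitters' processing notes reads were mapped with HISAT2 to GRCm38/mm10; no source used here names the read counter, its annotation or its use of strand. The values are whole multiples of 1 read (100% within 0.02), so reads were recovered and each library was rescaled to its own total. VTA P30 replicate 3 was deposited in another unit than FPKM, and its other values, per the file headers named alike, were rescaled in the same way. The gene length column, another unit, was taken as the authors deposited it. Genes were named by their IDs (54409 of 54532 with a symbol), since the name column matched the ID for 443.

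Genes that reached a rescaled FPKM of 1 in 3 or more libraries entered limma 3.58.1 (a linear model with empirical Bayes, its trend and robust options on; R 4.3.3, statmod 1.5.0) on log2(rescaled FPKM + 1), with 1 term for each of 9 groups, all 27 libraries and Benjamini-Hochberg adjustment over 18888 genes. Tables and figures were made with Python 3.11.15, numpy 2.4.6, pandas 2.3.3 and matplotlib 3.10.9. The procedure was tested on simulated data. Named genes were the 15 largest increases and 15 largest decreases, 5 per direction in each regional difference, the 6 members of each of 41 lists with the smallest adjusted p, and 5 dopaminergic genes; other members are given to account for their list. Some genes that this rule names are not reported here. The members and lists were chosen with earlier results of these data known. Alternatives were quantile normalization, the deposited scale, a pseudocount of 0.1, other filters, voom on recovered reads, fewer libraries and a replicate block. Genes with near-identical copies are uncertain, as the authors' counting could split reads between them, and with strand use unknown so are overlapping and antisense genes. The depth of 9838685 to 13802952 reads in genes per library makes 3 reads the floor for a gene without reads, which covers counting error only.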

Additional observations from a re-analysis of the deposited data

Results flagged for a closer look

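The change with age differed between regions by a test of the difference itself for 174 genes in the SNc against the NAc and for 73 genes in the SNc against the VTA. The difference SNc minus NAc on the log2 scale was positive, for example, for Arl11 (7.22), Rasal3 (5.71), Rgs1 (5.68), Blnk (5.67), Glipr1 (5.44), Cx3cr1 (4.46), Selplg (4.26) and Tmem119 (4.19). It was negative, for example, for Avp (-10.46), Fmod (-5.76), Rcan1 (-5.57), Gad1 (-5.49), Nr4a2 (-5.45), Cxcl1 (-5.34), Phlda1 (-4.85), Tnfsf18 (-4.81), Syn1 (-4.35), Bmp2 (-4.24) and Camk2a (-3.79). The difference SNc minus VTA was positive, for example, for Mobp (5.74), Rab33a (5.05), Fabp7 (4.58), Farp1 (4.56) and Mbp (4.55). It was negative, for example, for Zc3h12a (-5.84), Phlda1 (-5.68), Csf1 (-5.50), Bmp2 (-4.999) and Fosl2 (-4.81). Both differences contain the same SNc libraries, so that Phlda1 and Bmp2, which stand under both, are not independent observations. The libraries of the NAc and VTA whose removal ended a call are named with each gene above.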

How the results depend on the processing

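The P60 against P7 count of 720 called genes in the SNc became 389 with a pseudocount of 0.1, 1168 with SNc libraries alone, 1212 with the 6 compared libraries alone and 1182 without VTA P30 replicate 3, and lay between 412 and 512 with 1 SNc library left out. The difference from the NAc, 174 genes, became 320 with quantile normalization, 32 with a pseudocount of 0.1, 584 with the compared libraries alone, 546 without VTA P30 replicate 3 and 96 with voom, and lay between 52 and 304 with a library left out. The difference from the VTA, 73 genes, became 149, 24, 45 with a filter at 5, 191 without VTA P30 replicate 3 and 32 with the replicate block (the first 2 with quantile normalization and a pseudocount of 0.1), and lay between 31 and 130 with a library left out. The cause of these shifts was not tested. With 1 library left out Slc6a3, not called, lay between -2.37 and 0.47 (without SNc P7 replicate 3), and Th, not called, between -0.82 (without SNc P60 replicate 4) and 1.38, with -0.77 without SNc P7 replicate 3.

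Of 148 genes followed in the SNc comparison, 81 lost their call in at least 1 alternative and no called gene turned its direction; the pseudocount of 0.1 ended 50 calls, voom 33, the deposited scale 30 and quantile normalization 2. Of 52 called regional differences of single genes, with Phlda1 and Bmp2 counted under both regions, 46 were lost in at least 1 alternative. The pseudocount of 0.1 ended 33 of them and voom 28. Replicate numbers 1 and 3 occur at both ages in the SNc, where deviations of same-numbered P60 and P7 libraries correlated by 0.012 and 0.028. Those correlations compare ages only, so they cannot show whether the numbers pair libraries of different regions at the same age. Such a pairing was not tested. With the replicate block 553 genes were called in the SNc, 153 in the difference from the NAc and 32 in that from the VTA. Under that block 21 of the followed genes were no longer called in the SNc. At this depth a gene without reads may still have a level up to the floor of 3 reads per library. That floor is a bound for such genes and not a limit of detection, as some levels above rest on 1 read. List counts that moved by over 1.5 times under another scaling, pseudocount or set of libraries are given with their list where it had 3 or more calls.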
